A study of Mus musculus with 4 samples.

Results

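The genes described here are 43 genes of the proximal tubule, the nephron segment that takes most of the filtered water, salt, sugar, phosphate, amino acids and protein back into the blood. They were chosen by symbol, and all 43 have a row among the 24339 genes of the deposited expression table. The libraries came from GFP-positive mesenchymal nephron progenitors of mouse kidney, sorted by flow cytometry and profiled by RNA-seq of polyadenylated RNA. Of 4 libraries, 2 are from Six2TGC transgenic kidneys, in which a bacterial artificial chromosome (BAC) transgene of the progenitor gene Six2 makes Cre recombinase fused to GFP. The other 2 are from Six2 Cre/+ kidneys (Six2Cre), in which a T2A-GFP-Cre cassette was knocked in at Six2 itself. Both lines thus carry GFP-Cre, and no library without it was analysed here. The labels give no age, while the name of the authors' table carries embryonic day 18. Nothing in the labels ties a library to its own animal or to a pool, so p-values measure the spread between these libraries only.

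Nephron progenitors are mesenchymal cells that keep dividing or convert into epithelium, and the early epithelial vesicle is patterned into proximal, loop and distal segments. HNF4A is a nuclear receptor that acts on proximal tubule genes, and in mouse kidney it is needed for proximal tubule maturation. The endocytosis receptors appear early in the proximal segment. Many solute carriers and metabolic enzymes build up later, as the segment matures. Levels under 1 FPKM (fragments scaled to gene length and to library size) are treated here as low or absent.

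Nearly all of these 43 proximal tubule genes had less RNA in Six2TGC than in Six2Cre. For 40 of 43 genes both Six2TGC libraries lay below both Six2Cre libraries, against 32.1% of all genes with a value above 0. For 1 gene, Slc7a7, both Six2TGC libraries lay above, and Anpep and Slc7a8 overlapped. Added up over the 43 genes, FPKM came to 55.5 and 53.6 in Six2TGC, against 255 and 149 in Six2Cre. In both Six2TGC libraries 13 of the 43 genes were listed at 0, and 6 more were listed at 0 in a single Six2TGC library. None of the 43 was listed at 0 in a Six2Cre library. Of all 24339 genes, 8163 were at 0 in both Six2TGC libraries and 7504 in both Six2Cre libraries. The Six2TGC libraries had the lower estimated depth, so a listed 0 there is not evidence of absence. In bulk RNA, fewer cells of a type and less RNA per cell cannot be told apart.

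**Figure D1:**
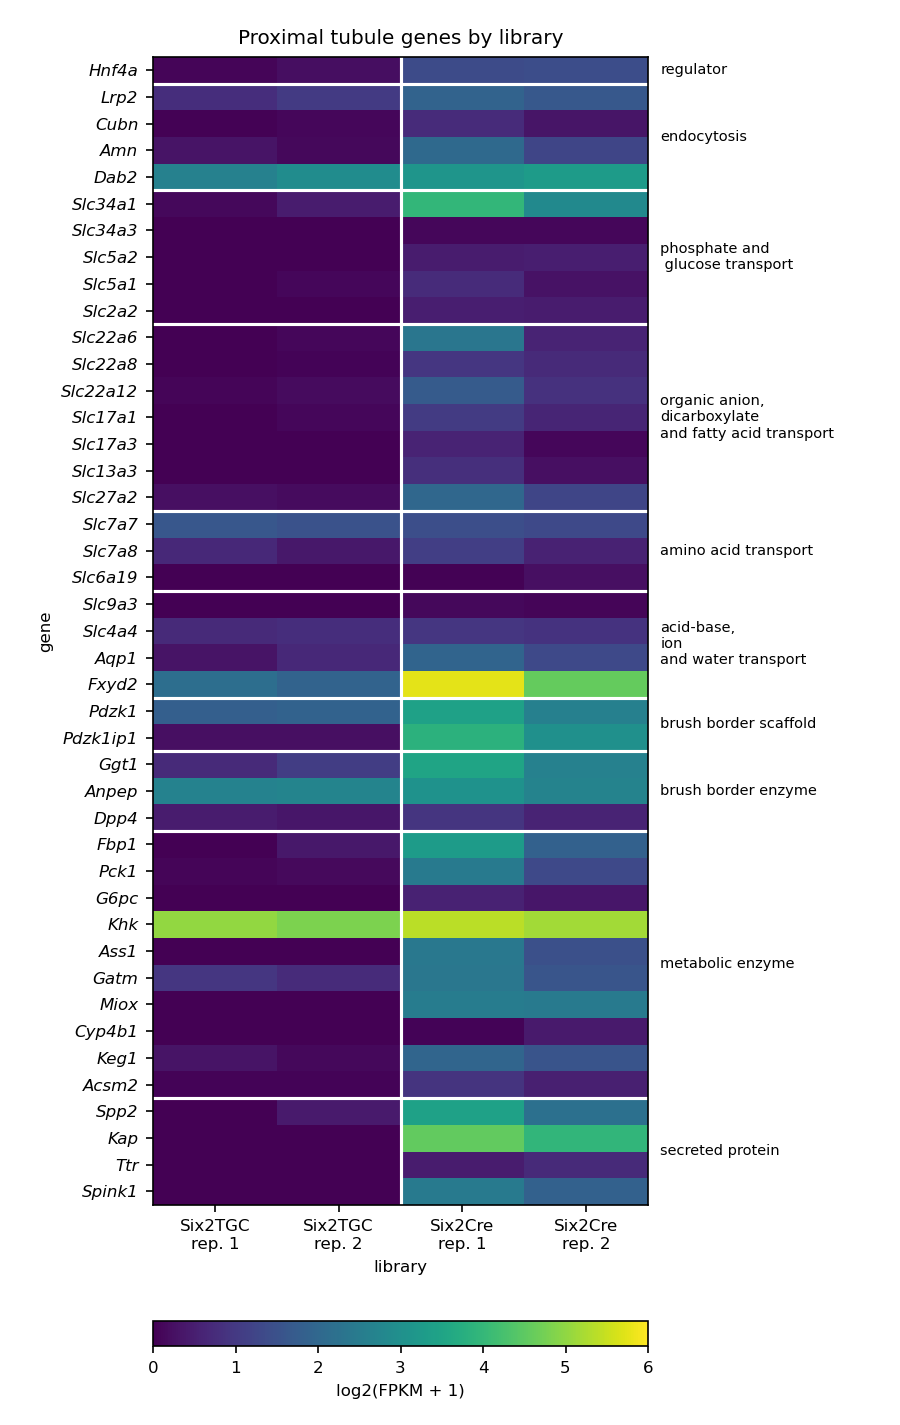
Level of each of the 43 proximal tubule genes in each library, as log2(FPKM + 1) by colour; rows are genes grouped by role and columns are the Six2TGC and Six2Cre libraries. Most genes are near 0 in Six2TGC and low but present in Six2Cre, brighter in replicate 1 than in replicate 2, while Khk, Anpep, Dab2, Slc7a7, Fxyd2 and Pdzk1 are above 1 FPKM in all 4 libraries.

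The lines were compared with limma on log2(FPKM + 1) over the 11917 genes whose mean FPKM reached 1. Of the 43 genes, 23 passed that level, and 15 of those had both Six2TGC libraries under FPKM 1, so they passed through their Six2Cre values and had to differ. Of the 23, 18 were lower in Six2TGC at a Benjamini-Hochberg adjusted p under 0.05 and 0 were higher, where 13.5% of all tested genes were lower and 10.8% higher. The median log2 difference of the 23 was -1.54, and that of all tested genes was -0.03. The 8 genes that reached FPKM 1 in a Six2TGC library were Lrp2, Dab2, Slc7a7, Fxyd2, Pdzk1, Ggt1, Anpep and Khk, and 5 of them were lower. The count of 18 became 7 without Six2TGC replicate 1, 8 without Six2TGC replicate 2 and 11 without Six2Cre replicate 1, and stayed at 18 without Six2Cre replicate 2. Of the 18, the genes that kept their call whichever library was left out were Kap, Miox, Spink1, Keg1 and Pdzk1ip1. All of these are among the 15 that passed through their Six2Cre values, so a kept call is no separate check. The lower genes outside those 15, Lrp2, Fxyd2, Pdzk1, Ggt1 and Khk, each lost their call when some library was left out.

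With no filter on low values, 25 of 43 genes were lower, against 7.49% of 17341 genes. That fit added 8 genes with a mean under 1 (Hnf4a, Slc5a2, Slc2a2, Slc22a8, Slc17a1, G6pc, Acsm2 and Ttr) and Fbp1, and lost Khk and Gatm. The 20 genes with a mean under 1 had both Six2TGC libraries below both Six2Cre libraries in 19 cases, against 22.8% of all genes with a mean above 0 and under 1. Just inside the limit of 1 lay Slc22a6, Slc27a2 and Amn, with means over the 4 libraries of 1.17, 1.18 and 1.21, and just outside it Hnf4a, Slc22a12 and Slc4a4, with 0.862, 0.829 and 0.781. In the authors' deposited table, 12 of the 25 genes that were tested there were significant, all 12 lower in Six2TGC, against 6.52% of tested genes. Of the 18 genes called lower by limma, 7 were not significant in the authors' deposited table, with q of 0.0598 for Amn, 0.0595 for Keg1, 0.103 for Pdzk1ip1, 0.132 for Pck1, 0.217 for Khk, 0.291 for Spp2 and 0.537 for Ass1.

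**Figure D2:**
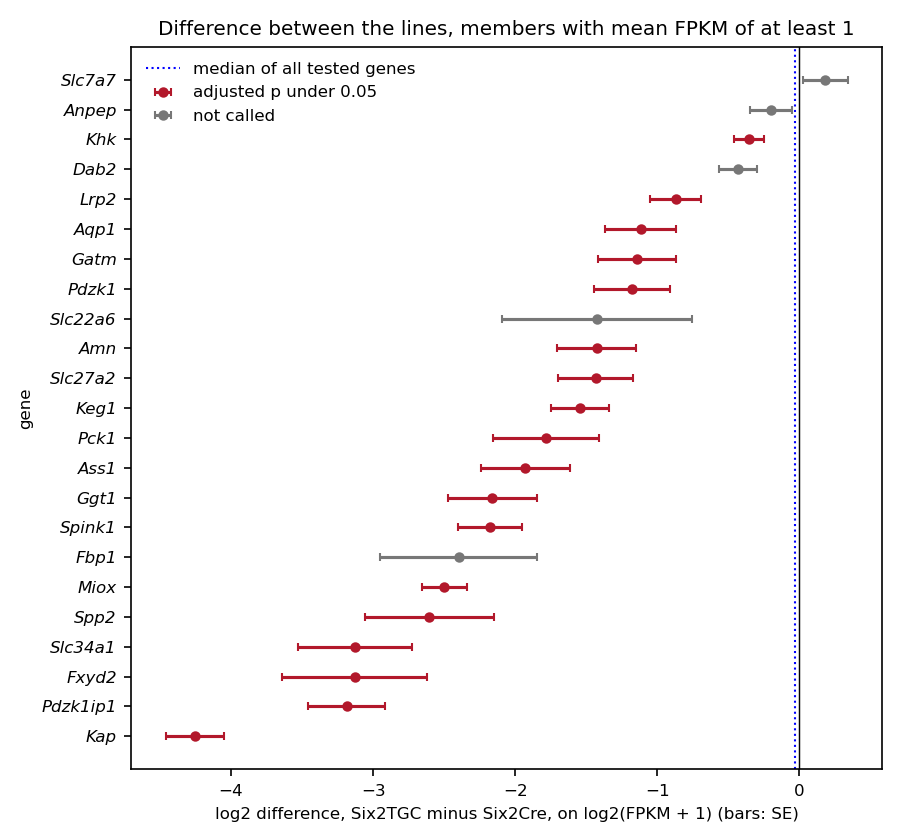
Log2 difference between the lines, Six2TGC minus Six2Cre, on the log2(FPKM + 1) scale for the 23 proximal tubule genes whose mean FPKM reached 1; points are limma estimates, bars are standard errors, and n = 2 libraries per line. The values run from -4.25 for Kap to 0.18 for Slc7a7, and 18 are called lower in Six2TGC.

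Hnf4a, the regulator among the 43 genes, was near absent in Six2TGC. Its FPKM was 0.0610 and 0.159 in Six2TGC, against 1.58 and 1.65 in Six2Cre. The lines did not overlap, and the Six2Cre libraries were close to each other. With a mean of 0.862 it was not among the 11917 genes. Without the filter the log2 difference was -1.24 (limma adjusted p = 5.06e-03), and in the authors' deposited table q was 5.39e-03. The table lists Hnf4a on chromosome 2 at 163547188 to 163572907 (mm10).

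Promoter windows of genes that were lower together are shown to let their letters be compared. RefSeq windows (GRCm38.p6, 250 bases before to 50 after the annotated start) were matched by symbol for 39 of 43 genes. Both strands were searched for CAAAGTCCA, a sequence bound by HNF4, and for the TATA box letters TATAAA, and no occurrence of one overlapped another in the windows shown. CAAAGTCCA was found for 1 of 39, Pdzk1, against 0.56% of 27025 genes with a window, and TATAAA for 7 of 39 (17.9%), against 15.67%. Median GC content was 54.5% in the windows of these genes and 52.7% in all windows. Other spellings of the HNF4 sequence were tried as well: CAAAGTC was found for 4 of 39 genes, against 5.0% of genes, AAAGTCC for 5 of 39, against 4.84%, and CAAAGGTCA for 0 of 39, against 0.54%. CAAAGTC and AAAGTCC lie within CAAAGTCCA. Longer spellings were tried too, with counts not given here, and the choice was made after the counts were seen. A match describes letters in a window and is not a measured binding site. The windows of Pdzk1 (the gene with CAAAGTCCA), Slc34a1 (a transporter with a large difference), Kap (the largest difference of the 23) and Miox (at 0 in Six2TGC and nearly equal in the Six2Cre libraries) are printed 5′ to 3′ on the gene's strand, with CAAAGTCCA and TATAAA, on either strand, in capitals. Pdzk1 has 2 windows, and the one nearer to its start in the authors' table is shown, whose RefSeq start lies 239 bases after that start. They lie at chr3:96829815-96830114 (+), chr13:55399398-55399697 (+), chr6:133853618-133853917 (-) and chr15:89334223-89334522 (+).
Pdzk1: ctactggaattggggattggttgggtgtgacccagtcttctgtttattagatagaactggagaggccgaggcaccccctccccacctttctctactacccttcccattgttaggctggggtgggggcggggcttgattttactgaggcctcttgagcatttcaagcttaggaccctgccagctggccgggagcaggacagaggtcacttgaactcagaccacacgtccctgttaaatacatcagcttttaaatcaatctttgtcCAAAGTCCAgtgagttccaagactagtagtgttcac
Slc34a1: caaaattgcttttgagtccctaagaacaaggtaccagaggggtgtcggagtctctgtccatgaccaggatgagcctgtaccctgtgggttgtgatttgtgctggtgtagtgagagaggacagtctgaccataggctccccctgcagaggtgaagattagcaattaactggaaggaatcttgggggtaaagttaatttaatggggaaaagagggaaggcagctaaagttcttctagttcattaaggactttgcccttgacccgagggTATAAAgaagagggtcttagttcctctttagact
Kap: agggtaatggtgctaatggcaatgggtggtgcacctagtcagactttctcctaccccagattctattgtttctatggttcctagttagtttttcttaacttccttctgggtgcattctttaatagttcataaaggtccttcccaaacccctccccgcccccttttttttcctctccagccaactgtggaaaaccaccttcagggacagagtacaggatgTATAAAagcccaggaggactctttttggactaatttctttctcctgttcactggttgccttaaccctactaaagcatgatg
Miox: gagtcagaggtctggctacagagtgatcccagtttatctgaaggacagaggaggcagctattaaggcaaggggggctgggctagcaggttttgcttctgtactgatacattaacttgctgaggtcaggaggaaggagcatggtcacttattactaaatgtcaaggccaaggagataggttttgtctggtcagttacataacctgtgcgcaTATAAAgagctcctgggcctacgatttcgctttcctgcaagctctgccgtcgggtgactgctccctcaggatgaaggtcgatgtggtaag

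Positions are counted from the annotated start, with negative ones before it. The Pdzk1 window holds CAAAGTCCA at 14, after the start. TATAAA begins at 16 in the Slc34a1 window, after the start, at -31 in the Kap window and at -40 in the Miox window.

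The endocytosis genes encode the receptor machinery for filtered proteins. Lrp2 encodes megalin, the large receptor of the apical membrane. It had FPKM 0.725 and 1.03 in Six2TGC, against 2.73 and 2.12 in Six2Cre, a 2.77-fold lower mean in Six2TGC (log2 difference -0.87 ± 0.180 SE, limma adjusted p = 0.0129). The lines did not overlap, but the call was lost without either Six2Cre library. Amn, which anchors cubilin in the membrane, had 0.247 and 0.0861 FPKM in Six2TGC against 3.13 and 1.37 in Six2Cre (-1.43, adjusted p = 0.0112 in limma). The Amn call was lost without either Six2TGC library and without Six2Cre replicate 1. Cubn, the cubilin gene, stayed under 1 FPKM throughout, at 0.0231 and 0.0842 in Six2TGC, against 0.656 and 0.262 in Six2Cre.

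Dab2, a clathrin adaptor that works with megalin and is also expressed outside the tubule, was present in every library. Its FPKM was 5.20 and 6.56 in Six2TGC, against 7.75 and 8.75 in Six2Cre. The lines did not overlap, yet the difference of -0.43 did not pass the test (limma adjusted p = 0.0562), and it passed without Six2TGC replicate 2. Hnf4a and the 4 endocytosis genes, the early members, thus lay lower in both Six2TGC libraries in 5 of 5 cases. The 38 later members did so in 35 of 38, and 32.1% of all genes with a value above 0 did. Early and later members were not compared by a test.

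Among phosphate and glucose transporters, Slc34a1, the main sodium phosphate cotransporter of the brush border, differed most. It had 0.0872 and 0.364 FPKM in Six2TGC, against 14.6 and 6.24 in Six2Cre (log2 difference -3.13 ± 0.404 SE, limma adjusted p = 8.89e-03). The lowest Six2Cre library was far above both Six2TGC libraries, and the call was lost without either Six2TGC library, with an adjusted p of up to 0.152. Slc34a3, a second phosphate cotransporter, was listed at 0 in Six2TGC and stood at 0.0722 and 0.0713 FPKM in Six2Cre. Slc5a2, the sodium glucose cotransporter of the early segment, was at 0 in Six2TGC and at 0.377 and 0.428 in Six2Cre. Slc2a2, the basolateral glucose transporter, was at 0 in Six2TGC against 0.427 and 0.365 in Six2Cre, and Slc5a1, the cotransporter of the late segment, at 0 and 0.0707 in Six2TGC against 0.675 and 0.234 in Six2Cre. All 4 of these genes were under 1 FPKM in every library. Slc5a2 is listed at one locus with BC017158, which stood at 22.2 to 26.3 FPKM in all libraries. How reads were assigned between them was not tested.

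Transporters of organic anions, urate, dicarboxylates and fatty acids were near absent in Six2TGC, where the highest value of the 7 genes was 0.178 FPKM. Slc27a2, a fatty acid transporter and ligase, had 0.178 and 0.124 FPKM in Six2TGC, against 3.04 and 1.39 in Six2Cre (-1.43, limma adjusted p = 8.38e-03). That call was lost without either Six2TGC library and without Six2Cre replicate 1. Slc22a6, the organic anion uptake transporter OAT1, had 0 and 0.0690 FPKM in Six2TGC, against 4.11 and 0.509 in Six2Cre. The 8.07-fold gap between the Six2Cre libraries was the widest among those of the 43 genes with at least 0.05 FPKM in both, and the difference of -1.43 had no call (limma adjusted p = 0.223), though it passed without Six2Cre replicate 2. Slc22a12, the urate exchanger, had 0.0605 and 0.126 FPKM in Six2TGC against 2.32 and 0.808 in Six2Cre. Slc17a1, a phosphate and urate transporter, had 0 and 0.0733 FPKM in Six2TGC against 1.06 and 0.537 in Six2Cre. Of the others, Slc22a8 (OAT3) was at 0.918 and 0.647 FPKM in Six2Cre, Slc13a3 (a dicarboxylate transporter) at 0.740 and 0.177 and Slc17a3 at 0.519 and 0.0681. Their Six2TGC values did not exceed 0.0423.

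Of the 3 amino acid transporters, 1 had both Six2TGC libraries below both Six2Cre libraries. Slc7a7, a basolateral transporter of cationic amino acids, was the single gene with both Six2TGC libraries above both Six2Cre libraries, at 2.11 and 1.83 FPKM in Six2TGC against 1.71 and 1.51 in Six2Cre, and it had no call (0.18, limma adjusted p = 0.432). It is listed at one locus with Oxa1l, which stood at 51.9 to 65.6 FPKM. Slc7a8, a basolateral transporter of neutral amino acids, had 0.627 and 0.310 FPKM in Six2TGC, against 1.17 and 0.491 in Six2Cre, and the lines overlapped. Slc6a19, the neutral amino acid transporter of the brush border, was the one below, at 0 in Six2TGC against 0.0301 and 0.178 FPKM in Six2Cre.

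Among genes of ion, acid-base and water transport, Fxyd2 reached the highest level of the whole set in a single library. Fxyd2 encodes the gamma subunit of the sodium pump and is also active in later nephron segments. It had 3.50 and 2.76 FPKM in Six2TGC, against 52.9 and 23.1 in Six2Cre, a 12.1-fold lower mean in Six2TGC (log2 difference -3.13 ± 0.510 SE, limma adjusted p = 0.0466). The lines lay far apart, as did the Six2Cre libraries, and the call was lost without either Six2TGC library, with an adjusted p of up to 0.257. Aqp1, the water channel of the proximal tubule and thin limb, had 0.245 and 0.613 FPKM in Six2TGC, against 2.80 and 1.49 in Six2Cre (-1.12, limma adjusted p = 0.0180). The Aqp1 call was lost without Six2TGC replicate 1 and without Six2Cre replicate 1. Slc4a4, the basolateral bicarbonate cotransporter, differed little, at 0.651 and 0.723 FPKM in Six2TGC against 0.917 and 0.834 in Six2Cre. Slc9a3, the sodium proton exchanger NHE3, was at 0 in Six2TGC and at 0.0883 and 0.0581 FPKM in Six2Cre.

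Pdzk1, a scaffold that tethers brush border transporters, and Pdzk1ip1, its small membrane partner, were both lower in Six2TGC. Pdzk1ip1 had 0.182 and 0.191 FPKM in Six2TGC, against 13.4 and 7.07 in Six2Cre (-3.19 ± 0.272 SE, limma adjusted p = 6.73e-04). Pdzk1 was present in both lines, at 2.52 and 2.69 FPKM in Six2TGC, against 9.83 and 5.14 in Six2Cre, a 2.87-fold lower mean (-1.18, limma adjusted p = 0.0293). Its call was lost without either Six2TGC library and without Six2Cre replicate 1.

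The brush border enzymes differed from one another. Ggt1, the glutathione-cleaving gamma-glutamyltransferase, had 0.643 and 1.14 FPKM in Six2TGC, against 10.3 and 5.23 in Six2Cre, an 8.71-fold lower mean in Six2TGC (-2.16, limma adjusted p = 7.74e-03), with no call without either Six2TGC library. Anpep, aminopeptidase N, had 5.32 and 5.51 FPKM in Six2TGC against 7.36 and 5.47 in Six2Cre and no call (-0.20, limma adjusted p = 0.375). Dpp4, another peptidase, stayed under 1 FPKM, at 0.366 and 0.288 in Six2TGC, against 0.891 and 0.519 in Six2Cre.

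Among metabolic enzymes, Miox gave the cleanest separation. Miox, which starts the breakdown of inositol, was listed at 0 in both Six2TGC libraries and had 4.71 and 4.59 FPKM in Six2Cre (-2.50 ± 0.159 SE, limma adjusted p = 8.18e-05). Its Six2Cre libraries were nearly equal, unlike those of most other genes here. Keg1, named in the table as a kidney expressed gene, had 0.250 and 0.0872 FPKM in Six2TGC, against 2.90 and 1.97 in Six2Cre (-1.54, limma adjusted p = 2.03e-03). Gatm, the first enzyme of creatine synthesis, had 0.923 and 0.663 FPKM in Six2TGC against 4.24 and 1.97 in Six2Cre, a 3.92-fold lower mean in Six2TGC (-1.14, limma adjusted p = 0.0281). The Gatm call was lost without either Six2TGC library and without Six2Cre replicate 1.

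Of the enzymes of sugar synthesis, Pck1 was lower in Six2TGC, at 0.0517 and 0.108 FPKM against 4.50 and 1.52 in Six2Cre (-1.78, limma adjusted p = 0.0230). Its call was lost without either Six2TGC library and without Six2Cre replicate 1. Fbp1 had 0 and 0.297 FPKM in Six2TGC, against 8.87 and 2.65 in Six2Cre and narrowly missed the threshold (-2.40, limma adjusted p = 0.0547); it passed without either Six2Cre library. The lines were far apart for both genes, and so were the Six2Cre libraries. G6pc, the last enzyme of the pathway, was listed at 0 in Six2TGC and had 0.493 and 0.292 FPKM in Six2Cre.

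Khk, which phosphorylates fructose, was the most abundant gene of the set by its mean over all libraries. It had 31.5 and 27.2 FPKM in Six2TGC, against 40.4 and 35.2 in Six2Cre. Its mean was 1.29-fold lower in Six2TGC (-0.36, limma adjusted p = 0.0448), a call lost without Six2TGC replicate 2, without either Six2Cre library, and under TMM rescaling. Ass1, an enzyme of arginine synthesis, had 2.18e-04 and 2.06e-04 FPKM in Six2TGC, against 4.29 and 1.74 in Six2Cre (-1.93, limma adjusted p = 7.09e-03), with no call without either Six2TGC library. The table lists the argininosuccinate synthase pseudogene Gm5424 at the same locus, with 0.450 and 0.376 FPKM in Six2TGC, against 3.44 and 2.27 in Six2Cre. The sum of Ass1 and Gm5424 was 0.450 and 0.376 in Six2TGC, against 7.73 and 4.01 in Six2Cre, lower in both Six2TGC libraries as Ass1 was. How reads were divided between them was not tested. Acsm2, a medium-chain acyl-CoA synthetase, had 0.0403 and 0.0420 FPKM in Six2TGC against 0.878 and 0.438 in Six2Cre, and Cyp4b1, a cytochrome P450 gene, 0 in Six2TGC against 0.0399 and 0.355 in Six2Cre.

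The genes of secreted proteins were almost silent in Six2TGC. Kap, the kidney androgen regulated protein, was listed at 0 in both Six2TGC libraries and had 22.6 and 14.4 FPKM in Six2Cre (-4.25 ± 0.207 SE, limma adjusted p = 3.37e-05). It was the largest difference of the set. Spink1, a trypsin inhibitor, was at 0 in Six2TGC and at 4.59 and 2.66 FPKM in Six2Cre (-2.18, limma adjusted p = 7.22e-04). Kap, Miox and Spink1 kept their calls under every alternative that tested them. These genes were at 0 in both Six2TGC libraries and passed the filter through Six2Cre only, so the kept calls are no separate check. Spp2, a secreted phosphoprotein, had 0 and 0.359 FPKM in Six2TGC, against 9.81 and 3.65 in Six2Cre (-2.60, limma adjusted p = 0.0218), lost without either Six2TGC library. Ttr, the thyroid hormone carrier, was at 0 in Six2TGC against 0.383 and 0.632 FPKM in Six2Cre.

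The Six2Cre libraries were not equal. Among the 41 genes with at least 0.05 FPKM in both, the ratio of replicate 1 to replicate 2 had a median of 1.90. It ran from 0.606 for Ttr to 8.07 for Slc22a6. The limit left out Slc6a19 and Cyp4b1, whose ratios were 0.169 and 0.112. The ratio was above 1 for 37 of 41. It was above 1.5 for 27 of 41, against 6.44% of all genes with at least 0.05 FPKM in both libraries. Genes with low values differ more between libraries: among genes with a mean under 1, 11 of these 18 were above 1.5, against 23.5% of all such genes, and among genes with a mean of at least 1, 16 of these 23, against 2.31%. Over all tested genes the median was 1.00. Hnf4a (0.954), Miox (1.03), Dab2 (0.886) and Lrp2 (1.28) lay near 1, while Fbp1 (3.34), Pck1 (2.97) and Slc13a3 (4.18) lay above the median of the set. Both Six2TGC libraries lay below Six2Cre replicate 2 alone for 40 of 43 genes, against 41.7% of genes with a value above 0. That count could not fall under the 40 genes below both Six2Cre libraries, so it is not a separate check. These ratios share their pair of libraries and are a description only.

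**Figure D3:**
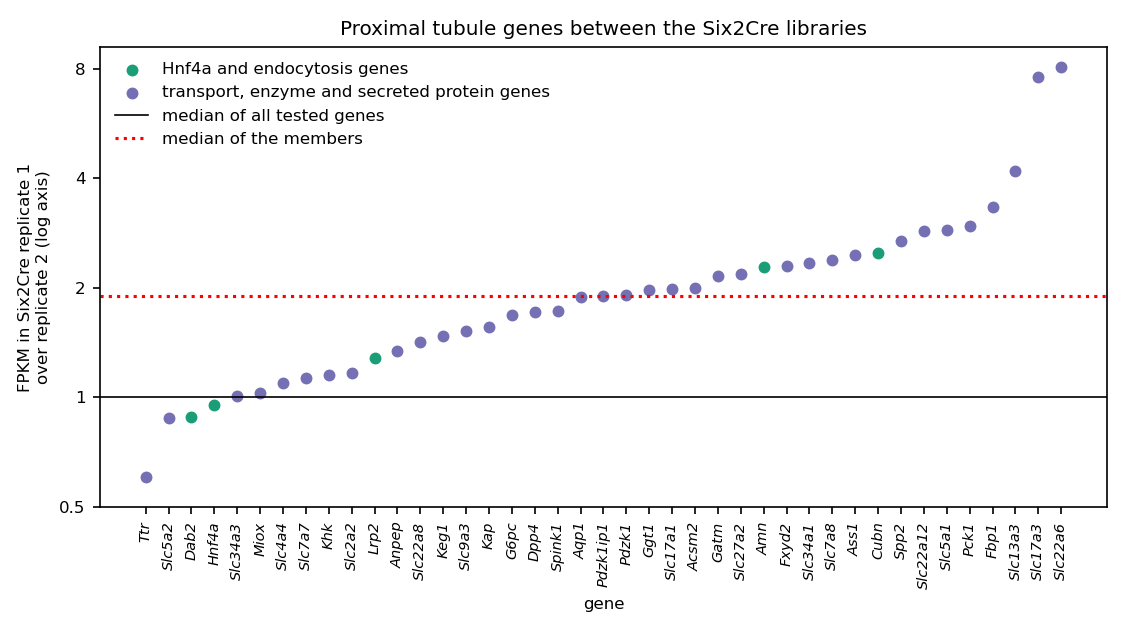
FPKM in Six2Cre replicate 1 divided by FPKM in Six2Cre replicate 2, on a log axis, for the 41 proximal tubule genes with at least 0.05 FPKM in both; points are genes in order of the ratio, coloured by the early or later role. Of these, 37 lie above 1, the red dotted line marks their median of 1.90, and the black line marks the median of 1.00 over all tested genes.

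A second list of proximal tubule genes, outside the 43, was set beside them. Of its 49 genes 27 were tested, and Six2TGC was lower for 9 of them and higher for 2. Of all tested genes, 13.5% were lower and 10.8% higher. The median log2 difference of the 27 was -0.29. Both Six2TGC libraries lay below both Six2Cre libraries for 30 of the 49 genes, against 32.1% of all genes with a value above 0. They lay above both for 9 of the 49. Among the 43 genes, 40 lay below and 1 above. Tmem27, a chaperone of amino acid transporters, had 0 and 0.118 FPKM in Six2TGC against 4.43 and 2.37 in Six2Cre (-2.02, limma adjusted p = 1.57e-03), and the kidney cadherin gene Cdh16 0.896 and 0.386 in Six2TGC against 5.06 and 3.87 in Six2Cre (-1.75). The peptidase gene Mep1a had 0.184 and 0.337 FPKM in Six2TGC against 3.80 and 1.84 in Six2Cre (-1.55), a call lost without Six2TGC replicate 1 and without Six2Cre replicate 1. The 2 higher genes, named after their values were seen, were Ndufa4l2 (1.14) and Rab11fip3 (0.31), and neither call held without either Six2Cre library, nor that of Rab11fip3 without Six2TGC replicate 1. The list's calls fell to 3 lower and 0 higher without Six2Cre replicate 1.

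Regulators that act before or beside Hnf4a were read from a list of 21 genes. Of 15 tested, 7 were higher and 3 lower in Six2TGC, and without Six2Cre replicate 1 there were 5 higher and 1 lower. The adhesion gene Cdh6 (2.16), the vesicle transcription factor gene Lhx1 (1.99) and the Notch ligand gene Jag1 (1.38) were higher, and another Notch ligand gene, Dll1 (-1.53), was lower; each kept its call whichever library was left out.

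Markers of the sorted cells and of other kidney cells were read in the same libraries. Of 15 nephron progenitor markers, all reached at least 1 FPKM in every library, among them Six2 at 749 and 816 FPKM in Six2TGC, against 545 and 533 in Six2Cre. Six2TGC was lower for 10 of the 15 by limma and higher for 2, Six2 and Hoxd11. Six2 is the gene used for the construct in both lines, and the part of the constructs in its level was not tested. Cited1, a marker of uncommitted progenitors, had 109 and 94.6 FPKM in Six2TGC, against 907 and 878 in Six2Cre (-3.12), and Traf1 (-4.64), Meox2 (-2.34) and Meox1 (-1.83) were lower too, each whichever library was left out. The 15 markers added up to 1946 and 2019 in Six2TGC, against 2732 and 2654 in Six2Cre, a gap of about the size of that in Cited1. Of the loop and distal tubule markers, 10 of 11 were lower in both Six2TGC libraries, against 32.1% of all genes with a value above 0. Their sum was 6.07 and 4.60 in Six2TGC against 29.9 and 31.6 in Six2Cre, most of it Ppp1r1b. Between the Six2Cre libraries they did not follow the proximal genes. Their median ratio of replicate 1 to replicate 2 was 0.944, against 1.88 for the proximal genes, with no limit on level. The thick limb transporter gene Slc12a1 was at 0 in Six2TGC and at 1.77 and 0.394 FPKM in Six2Cre, and Umod at 0.577 and 0 in Six2TGC against 2.38 and 1.63 in Six2Cre. Ureteric bud and collecting duct markers summed to 11.6 and 9.79 in Six2TGC against 21.4 and 26.5 in Six2Cre. Of these markers, 7 of 11 were lower in both Six2TGC libraries, against the same 32.1%. The water channel gene Aqp2 had 0.0995 and 0 in Six2TGC against 1.52 and 1.55 in Six2Cre. Upk3a and Pvalb of these lists were at 0 in all libraries.

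Of 8 endothelial markers, 5 were lower in both Six2TGC libraries, against 32.1% of all genes with a value above 0. The sum of the 8 was 17.2 and 10.1 in Six2TGC against 9.64 and 9.95 in Six2Cre. Its largest part was Plvap, the only marker of the 8 higher in both Six2TGC libraries. Plvap had 15.6 and 9.52 FPKM in Six2TGC against 5.97 and 4.88 in Six2Cre. Podocyte markers summed to 340 and 284 in Six2TGC against 270.5 and 269.6 in Six2Cre, and the podocyte gene Nphs1 stayed at or under 0.0742 FPKM. Of 9 liver genes found, 6, among them Alb and Apob, were at 0 in all 4 libraries, and the sum was 1.21 and 1.03 in Six2TGC against 2.25 and 1.94 in Six2Cre. Renal stroma markers summed to 158 and 128 in Six2TGC against 112 and 81.3 in Six2Cre, with 5 of 10 higher and 1 lower in both Six2TGC libraries. Of 9 blood and immune markers, 4 were higher in both Six2TGC libraries, among them C1qa (1.24, a call lost without Six2Cre replicate 2), and 1, Cd68, was lower (-1.18). Their sum, most of it Cd68 in Six2Cre, was 16.6 and 15.1 in Six2TGC against 24.1 and 23.7 in Six2Cre. Of 15 early differentiating nephron markers tested, 9 were higher in Six2TGC, led by Wnt4 (3.37), and 2 lower, Fgf8 (-1.96) and Dll1 (-1.53). Of all 17, 12 lay higher and 5 lower in both Six2TGC libraries, and the sum was 472 and 462 in Six2TGC against 239 and 226 in Six2Cre. The part of cells of other types in the proximal tubule difference was not tested.

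**Figure D4:**
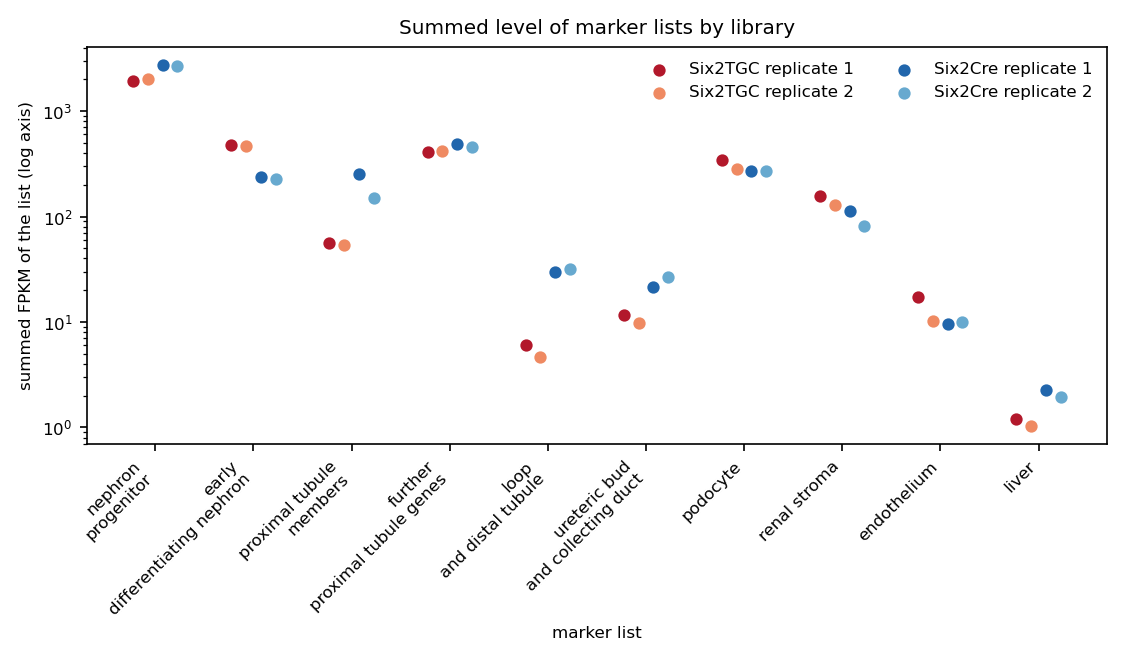
Summed FPKM of each marker list in each library on a log axis; each point is 1 library, in the order Six2TGC replicates 1 and 2 and Six2Cre replicates 1 and 2. The proximal tubule genes (55.5 and 53.6 in Six2TGC, 255 and 149 in Six2Cre) and the loop and distal list lie lower in Six2TGC, and the early differentiating nephron list lies higher.

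Depth also differed between the lines. Ratios of low FPKM values put the relative depth at 0.958 in Six2TGC replicate 2 and at 1.85 and 1.87 in the Six2Cre libraries, with Six2TGC replicate 1 as the unit. A listed 0 in Six2TGC was therefore reached with fewer fragments than a 0 in Six2Cre would have been, and is not evidence of absence. The Six2Cre libraries had nearly the same estimated depth. With 2 libraries per line an exact permutation test of a single value cannot give a p below 0.333, and none is given.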

How the data were processed

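Polyadenylated RNA of sorted GFP-positive cells was measured in 4 libraries, 2 per line, grouped by sample title. The authors deposited 1 table holding FPKM for each gene in each library, line means, and p-values and q-values of their own comparison, per the file headers. HISAT2, Cuffdiff and mm10 are named in the submitters' processing notes. Versions, annotation, strand setting and the treatment of reads shared by gene copies are not stated in the sources used here. Read counts are not used here. Relative depth was read from the most frequent ratio of low FPKM values, which only 274 to 397 of 1564 to 1719 genes shared. A blank line of the table is not used here.

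limma 3.58.1 (R 4.3.3) was fitted to log2(FPKM + 1) of genes whose mean FPKM reached 1, with trend and robust empirical Bayes, two-sided, without covariates, and p-values were Benjamini-Hochberg adjusted over all 11917 genes tested. Differences are Six2TGC minus Six2Cre and understate changes of low genes. Folds are ratios of line means (Six2Cre over Six2TGC, printed as fold lower) and are given where both Six2TGC libraries reached 0.5 FPKM. Library names fall in a different number range for each line, and no preparation date is stated, so a batch that follows the line and the line itself cannot be told apart. Starts in the table were raised by 1. All members are named; of each further list up to 4 called genes with the largest changes were chosen, of which some are not reported here, and other named genes are defining markers or were chosen after their values were seen. Members, lists and tests were chosen with earlier results of these data known, and the limits for folds and for the ratio of the Six2Cre libraries, and the motifs, after their values were seen. The fit was checked on 1 simulated data set, in which more of the calls were false than the threshold allows, so calls near it are less certain. Alternatives were another pseudocount, filter, scaling, empirical Bayes setting and replicate block, the authors' q-values, and leaving out each library.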

Additional observations from a re-analysis of the deposited data

How the results depend on the processing

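Of the 43 genes, the 18 called lower became 7 among genes whose mean FPKM reached 5, a level that only 8 of them reached. Leaving out 1 library gave 7 to 18 calls for them, 953 to 2736 for all genes against 2900, and 3 to 11 for the further proximal tubule list against 11; a fit with 3 libraries rests a line on 1 library, assumed to vary like the others. The authors' deposited q-values gave 1637 genes in all and 5 of the further list, and a mean FPKM of 5 or more gave 6 of that list. The count of genes with both Six2TGC libraries below both Six2Cre libraries was 40, and it ran from 40 to 42 without 1 library. Leaving out a library cannot lower this count, so it is no check of it. This alternative was added after seeing the data, as were those of the further list. A replicate block gave 19 calls among the 43 genes and 2713 in all; the libraries share only a number (r = -0.0399 between the deviations of same-numbered libraries), so the block is not a pairing, and Dab2 was the single gene whose call it changed. No alternative reversed a tested member. TMM rescaling and quantile normalization each gave 17 calls, all lower. Low depth in Six2TGC limits values under 1 FPKM.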

Other observations

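Of the 43 proximal tubule genes, 10 lie on chromosome 2 (23.3%), where 8.41% of the genes of the table lie. The genes were listed by function, and the positions were read afterwards.

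Markers of other cell types differed in how they stood between the Six2Cre libraries. The loop and distal marker Ppp1r1b had 22.4 FPKM in Six2Cre replicate 1 and 25.7 in replicate 2, Krt18 12.2 and 17.5, and the endothelial gene Tie1 0.740 and 1.32, while Slc12a1 had 1.77 and 0.394 and Kcnj1 0.519 and 0.117. Aqp2 had 1.52 and 1.55. These genes were picked after their values were seen.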
